A study of Homo sapiens with 3 samples.

Results

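The genes described are 9 regulators of neural fate and early neuronal genes: the transcription factors PAX6, NEUROG1, NEUROG2, NEUROG3, NEUROD1, OLIG2 and ZIC1, and the microtubule-associated genes DCX and MAP2. They were chosen by symbol, through the platform annotation of the array. Of the 9 genes, 8 had a named probe, and these 8 genes were read by 10 probes of 18468 named probes on the array (16225 genes). NEUROD1 had no named probe and is not analysed here.

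Total RNA came from the human embryonic stem (ES) cell lines H9, BG03 and ES01, described as undifferentiated, which form 1 group with 1 Illumina bead array per line. All 3 lines carry no named genetic change or treatment in the labels, and all were grown on irradiated mouse embryonic fibroblast feeders in a DMEM/F12 medium with serum replacement and FGF2. The series text also names mouse ES cells and epiblast stem cells, which are not analysed here. Each array carried 2089034 to 2102778 beads, with a median of 42 beads per bead type, and the number of arrays limits the precision of any difference between lines. Nothing in the labels gives a second culture of a line, so p-values below rest on the spread between 3 lines that differ in origin, culture and array at once. The limma fit moderates each gene's spread by that of other genes of similar intensity.

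Neural tissue arises when pluripotent cells take up a neuroectodermal identity. Factors such as PAX6 and ZIC1 act early, in the neural plate and its progenitors. Proneural factors of the basic helix-loop-helix (bHLH) class, among them the neurogenins, then commit progenitors to become neurons by binding DNA together with partner E proteins. ID proteins hold the E proteins in inactive pairs, and HES proteins repress proneural genes. DCX and MAP2 stabilise microtubules in migrating and maturing neurons.

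The neurogenins were above the olfactory receptor background, defined below, in none of the lines, so their promoters are shown first. The windows run from 250 bases before to 50 bases after the start site, from RefSeq on GRCh38.p14, each 5′ to 3′ on the gene's own strand. They are NEUROG1 on the minus strand at chr5:135535915-135536214, NEUROG2 on the minus strand at chr4:112516131-112516430 and NEUROG3 on the minus strand at chr10:69573373-69573672. Capitals mark letters that match CACGNG or CACNAG on either strand, the class C site and the N-box that HES-type repressors are known to bind.

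NEUROG1: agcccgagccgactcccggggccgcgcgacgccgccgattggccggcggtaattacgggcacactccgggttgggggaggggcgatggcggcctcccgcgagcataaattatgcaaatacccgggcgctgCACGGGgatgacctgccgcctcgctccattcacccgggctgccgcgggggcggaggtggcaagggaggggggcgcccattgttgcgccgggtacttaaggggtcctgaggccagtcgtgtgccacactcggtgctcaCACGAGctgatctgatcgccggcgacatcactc

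NEUROG2: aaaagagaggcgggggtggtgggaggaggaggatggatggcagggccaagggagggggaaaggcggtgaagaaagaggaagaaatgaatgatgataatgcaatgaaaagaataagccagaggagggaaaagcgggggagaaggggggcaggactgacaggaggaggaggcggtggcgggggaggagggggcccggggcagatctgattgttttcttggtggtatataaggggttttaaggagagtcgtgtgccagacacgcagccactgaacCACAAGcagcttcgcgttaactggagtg

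NEUROG3: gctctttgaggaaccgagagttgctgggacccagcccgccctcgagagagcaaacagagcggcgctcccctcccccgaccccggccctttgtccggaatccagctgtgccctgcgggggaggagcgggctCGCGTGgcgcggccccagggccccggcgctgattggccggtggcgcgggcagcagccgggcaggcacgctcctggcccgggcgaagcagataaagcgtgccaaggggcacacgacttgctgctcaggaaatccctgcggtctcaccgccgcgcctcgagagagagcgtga

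CACGNG occurred 2 times in the NEUROG1 window, 0 times in that of NEUROG2 and 1 time in that of NEUROG3. CACNAG occurred 1, 1 and 0 times in the windows of NEUROG1, NEUROG2 and NEUROG3. In NEUROG1 the 6 letters CACGAG match both motifs at once. Of 35116 windows of the same length, 30.5% held CACGNG and 38.0% held CACNAG, so such matches are common, and a match is a description of the letters only. The windows held 35 CpG pairs for NEUROG1, 10 for NEUROG2 and 31 for NEUROG3, beside a median of 14 over all windows. Windows of DCX held 2 to 4 CpG pairs, those of MAP2 5 to 10 and those of PAX6 5 to 32. That of ZIC1 held 26 and that of NEUROD1 31. Of the 9 genes, 8 had such windows (20 in all).

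Intensities below are in array units after quantile normalization. A probe counted as above background when it exceeded the 95th percentile of 214 olfactory receptor probes on the same array, genes taken here to be silent in ES cells. These thresholds were 11.2 units in H9, 12.6 in BG03 and 13.3 in ES01. Bulk RNA cannot tell fewer expressing cells from less RNA per cell, and this holds for every level given. No probe was checked for reading its transcript, so a gene not above background is not shown to be absent.

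Of the 8 measured genes, 1 was above background in all 3 lines (DCX), 3 in some lines (PAX6, OLIG2 and ZIC1) and 4 in no line (NEUROG1, NEUROG2, NEUROG3 and MAP2). Among all 16225 genes the shares were 59.8% for all lines, 8.02% for 1 or 2 lines and 32.2% for no line, so that 67.8% passed in at least 1 line. Each line had 3 of the 8 genes above background, but not the same 3. H9 had OLIG2, ZIC1 and DCX, BG03 had PAX6, OLIG2 and DCX, and ES01 had PAX6, ZIC1 and DCX. Leaving out any 1 line raised the count above background in all remaining lines to 2, by PAX6 without H9, ZIC1 without BG03 and OLIG2 without ES01. This rise was fixed in advance, since each of these genes failed only in the line left out. With taste receptor, keratin-associated protein, beta-defensin and vomeronasal receptor probes as a second background set, whose threshold in ES01 was 10.7 units, 6 of the 8 passed in at least 1 line, since NEUROG3 (11.3) and MAP2 (12.9) passed in ES01. Of all genes, 64.4%, 63.5% and 63.1% were above background in H9, BG03 and ES01.

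**Figure D1:**
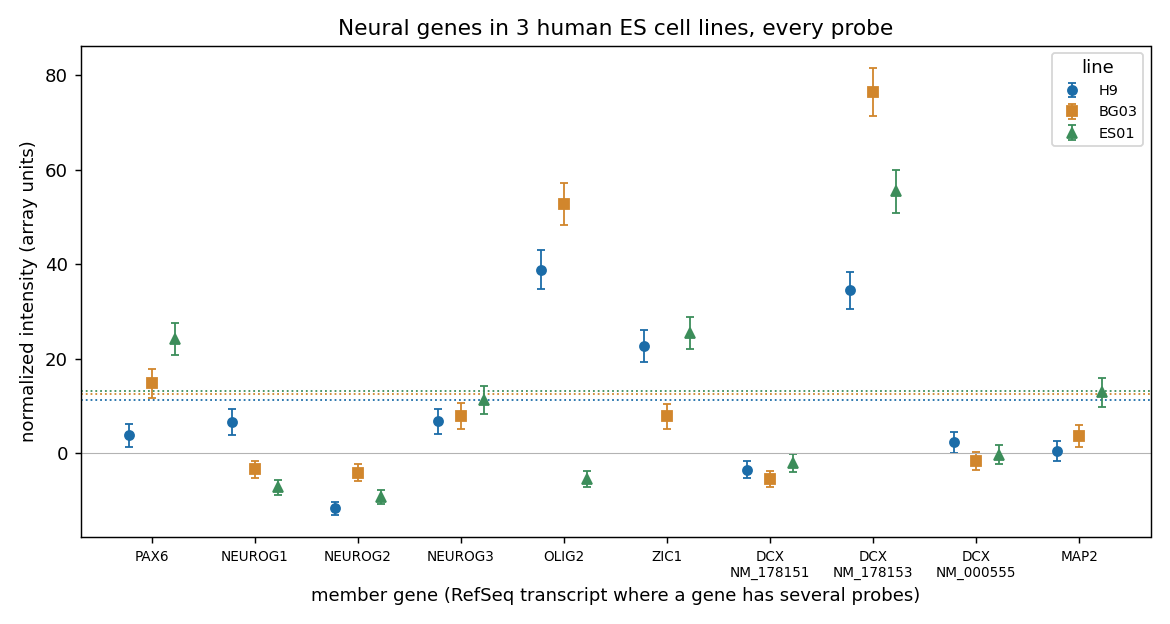
Normalized intensity (array units) of each of the 10 probes in H9 (circles), BG03 (squares) and ES01 (triangles); bars are the standard error over beads found at the same rank of intensity on that array, and dotted lines are the background thresholds of 11.2 to 13.3 units. OLIG2 lies at 38.8 and 52.8 in H9 and BG03 and at -5.43 in ES01, and of the 3 DCX probes 1 lies above the thresholds.

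The 3 lines were also used as replicates of human ES cells. For each gene the log2 distance from the threshold, log2(intensity + 16) minus log2(threshold + 16), was tested against 0 with limma, two-sided, with Benjamini-Hochberg adjustment over all 16225 genes. Adding 16 units understates the distance of dim genes, and the thresholds were taken as fixed. By this test 58.2% of all genes lay above the threshold and 28.6% below it. A gene at a typical background level falls below, because the threshold is a high percentile of the silent genes.

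The early regulators PAX6 and ZIC1 were near the threshold. PAX6, which marks the human neuroectoderm and later the eye and forebrain, measured 3.80 in H9, 14.8 in BG03 and 24.2 in ES01. H9 was low, and BG03 passed the threshold by a small margin. At or above PAX6 lay 54, 7 and 2 of the 214 olfactory receptor probes in the same lines. Its mean log2 distance from the threshold was 0.03 (SE 0.18, limma adjusted p = 0.865), so over the lines it could not be told from the threshold.

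ZIC1, a zinc finger factor of the neural plate border and dorsal neural tube, measured 22.7, 7.80 and 25.4 in H9, BG03 and ES01. H9 and ES01 were alike and BG03 was below its threshold. Its mean log2 distance was 0.25 (SE 0.18, limma adjusted p = 0.221), and without BG03 it was 0.49 (limma adjusted p = 0.0213), so BG03 decides the call. Leaving out the low value fixes that rise, which is not evidence of detection. Of the other ZIC genes, ZIC2 measured 5427, 4199 and 3699 in H9, BG03 and ES01, ZIC5 measured 36.9, 25.9 and 26.5, and ZIC4 measured 1.43, 6.77 and 6.47. ZIC2 and ZIC5 were above background in all lines and ZIC4 in none (at the 99th percentile 1 of these 3 was above in all lines), and probes of different genes were not set against each other by level.

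OLIG2, a bHLH factor of motor neuron and oligodendrocyte progenitors, measured 38.8 in H9, 52.8 in BG03 and -5.43 in ES01. Only 1 of the 214 olfactory receptor probes was at or above OLIG2 in H9, and 1 in BG03, whereas 169 were in ES01. So the probe stood with the brightest of the silent genes in H9 and BG03 and within their bulk in ES01. Over the 3 lines its mean log2 distance was 0.27 (SE 0.48, limma adjusted p = 0.611). Without ES01 the distance was 1.14 (limma adjusted p = 0.000375), and the call of OLIG2 rests on that line. Leaving out the line under its threshold fixes that rise, so it is not evidence of detection.

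The neurogenins were under the olfactory receptor thresholds in every line, and NEUROG3 passed that of the second background set in ES01. NEUROG1, which drives sensory neuron formation, measured 6.57, -3.37 and -7.20 in H9, BG03 and ES01. Its mean log2 distance was -1.06 (SE 0.27, limma adjusted p = 0.00748), below the threshold. NEUROG2, a driver of glutamatergic neurons in the cortex, measured -11.6, -4.07 and -9.20 and also lay below the threshold (log2 distance -2.00, SE 0.30, limma adjusted p = 0.000442).

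NEUROG3, which in addition to the nervous system commits progenitors of the endocrine pancreas, measured 6.77, 7.90 and 11.3 in the same lines. All 3 values were under their thresholds, but 22, 29 and 17 of the 214 olfactory receptor probes were at or above them, so the probe was among the brighter of these. Its mean log2 distance was -0.21 (SE 0.12, limma adjusted p = 0.152). With the threshold at the 99th percentile it fell below (log2 distance -0.76, limma adjusted p = 0.000479). Of 6 measured markers of the endocrine pancreas, INS, GCG, PAX4 and NKX2-2 were above background in no line, and INSM1 and CHGA in all.

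DCX, doublecortin, was the 1 gene of the 8 whose mean lay above the threshold by the test. Its brightest probe, made to transcript NM_178153, measured 34.4 in H9, 76.3 in BG03 and 55.4 in ES01, and at most 2 of the 214 olfactory receptor probes were at or above it in any line. Its mean log2 distance was 1.29 (SE 0.16, limma adjusted p = 0.000166). The values were 3.06, 6.05 and 4.17 times the thresholds of H9, BG03 and ES01.

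The other DCX probes did not show this. The probe for NM_178151 measured -3.50, -5.43 and -1.97 in H9, BG03 and ES01, and that for NM_000555 measured 2.30, -1.57 and -0.30. All 6 values were under the thresholds. Taking the mean over the 3 probes ended the call (log2 distance -0.25, limma adjusted p = 0.0813). In the probe identifiers the bright probe carries the suffix that Illumina used for probes reading all transcripts of a gene, and the dim probes carry the suffix for single isoforms.

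MAP2, a microtubule-associated protein of dendrites, measured 0.50, 3.63 and 12.9 in H9, BG03 and ES01. ES01 was the highest and still under its threshold of 13.3, with 12 of the 214 olfactory receptor probes at or above it. Its mean log2 distance was -0.43 (SE 0.17, limma adjusted p = 0.0451). The adjusted p of MAP2 was 0.207 without H9, 0.143 without BG03 and 0.0897 with the second background set.

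**Figure D2:**
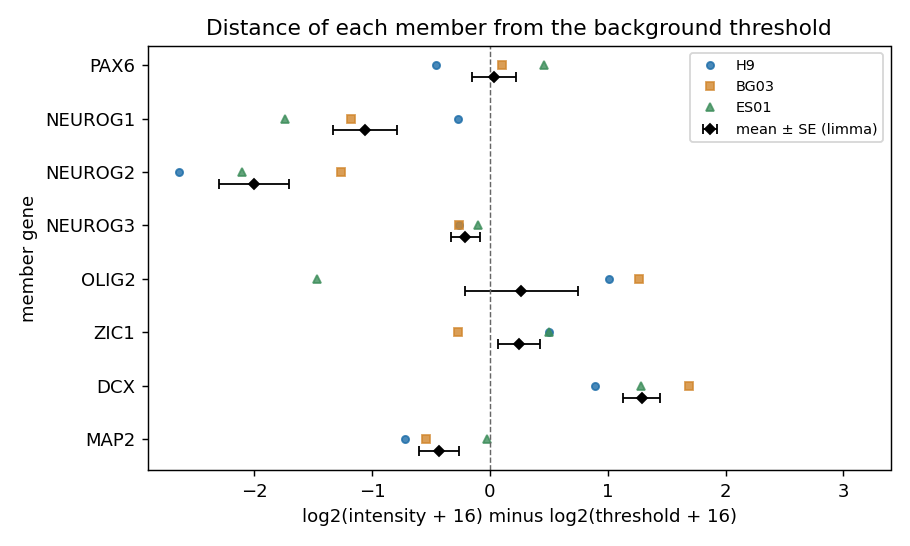
Log2 distance from the background threshold, log2(intensity + 16) minus log2(threshold + 16), for each of the 8 measured genes in H9 (circles), BG03 (squares) and ES01 (triangles), with the mean and its standard error from limma (diamonds, 3 lines). DCX lies right of the dashed line in all lines, with a mean of 1.29, and OLIG2 has the widest error, 0.48.

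Differences between lines have no replicate check, since each line has 1 array, and are given by size with no p. Values under the threshold were set to it first, so a ratio with 1 line under it is a bound, and genes above background in at least 1 line were used (10997 of all genes, and 4 of the 8). Of those 4, the 3 that passed in some lines only were favoured by this filter to differ, and nothing is read from their count. At least 2-fold were DCX between H9 and BG03, PAX6 and OLIG2 between H9 and ES01, and OLIG2 and ZIC1 between BG03 and ES01. Of all 10997 genes, 3.23%, 5.10% and 3.74% differed as much in these pairs, and 8.23% in any pair. Among the 2266 genes whose mean intensity lay within the range of these 4 (14.3 to 55.4 units), 20.2% differed at least 2-fold in any pair.

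OLIG2 was at least 2.93-fold higher in H9 than in ES01 (log2 difference 1.55) and at least 3.97-fold higher in BG03 than in ES01 (log2 difference 1.99). Differences in units, here and below, are between values not set to a threshold, so they are not the unit size of the bounds. For OLIG2 they were 44.3 and 58.2 units, which were 10.1 and 12.4 times the standard error over beads of bead types at the same rank of intensity. That error covers 1 array only and not a repeat of the culture. With thresholds at the 99th percentile of the olfactory receptor probes the log2 bounds fell to 0.86 for H9 over ES01, under 2-fold, and 1.30 for BG03 over ES01. H9 and BG03 differed 1.36-fold, with H9 lower.

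DCX was 2.22-fold lower in H9 than in BG03, a difference of -41.9 units or 6.55 times the bead error. H9 was 1.61-fold lower than ES01, and BG03 was 1.38-fold higher than ES01. Both neighbouring steps in the order BG03, ES01, H9 were under 2-fold.

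PAX6 was at least 2.15-fold lower in H9 than in ES01 (-20.4 units, 4.87 times the bead error). It was at least 1.31-fold lower in H9 than in BG03, and 1.64-fold lower in BG03 than in ES01. ZIC1 was at least 1.80-fold higher in H9 than in BG03 and at least 2.01-fold lower in BG03 than in ES01 (-17.6 units, 4.07 times the bead error). The ratios of PAX6 and ZIC1 were near the size used to count them, and with the second background set the ZIC1 ratio no longer reached 2-fold.

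The order of the lines differed among the 4 genes. ES01 was highest for PAX6 and, with H9 1.12-fold lower, for ZIC1, and lowest for OLIG2, and BG03 was highest for OLIG2 and DCX and lowest for ZIC1. The median log2 difference over the 4 genes was -0.42 for H9 over BG03, -0.42 for H9 over ES01 and -0.12 for BG03 over ES01, beside -0.03, -0.01 and 0.01 over all genes. Nothing is read from these medians, since PAX6, OLIG2 and ZIC1 passed the filter in some lines only. Scaling the arrays to the same median instead moved the median over all genes to 0.27 for H9 over ES01 and 0.34 for BG03 over ES01. Under that scaling ZIC1 was higher in H9 than in ES01 (log2 difference 0.16), PAX6 in H9 over ES01 was at -0.77 and ZIC1 in BG03 over ES01 at -0.76, both under 2-fold, and OLIG2 was at 1.85 and 2.30 for H9 and BG03 over ES01.

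**Figure D3:**
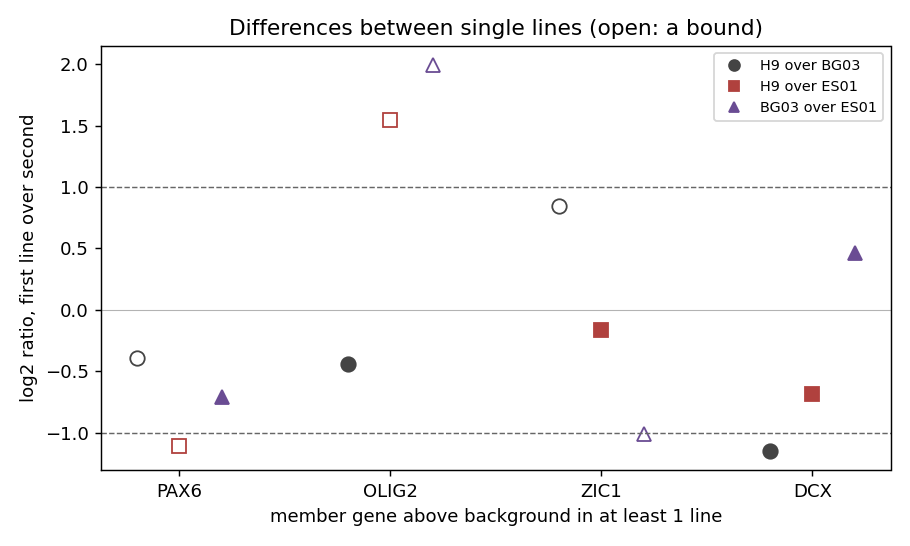
Log2 ratio between single lines, first line over second, for the 4 genes that passed the threshold in some line; open symbols are bounds with 1 line under its threshold, and dashed lines mark 2-fold. OLIG2 stands at 1.55 and 1.99 for H9 and BG03 over ES01, and its ratio of H9 over BG03 at -0.44.

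The genes closest to each of these 4 over the 3 lines were found by Euclidean distance between their log2(intensity + 16) values. With 3 points per gene many genes come close by number alone: 110 genes lay within 0.5 of DCX, 138 within 0.5 of PAX6 and 153 within 0.5 of ZIC1. The closest were IL34, REL and CLTRN for DCX, GHR, PARD3B and NRN1L for PAX6, and ZNF582, LOX and H2AC4 for ZIC1. No gene lay within 0.5 of OLIG2. Its closest, ZNF516, lay 1.06 away with 29.1, 25.9 and 1.53 units in H9, BG03 and ES01, followed by CPT1B and NUDT18 at 1.15 and 1.18.

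Other genes of the same steps were read from lists that leave out the 9 genes. Of 31 measured neural plate and progenitor factors, 9 were above background in all lines and 17 in none, and by limma 8 lay above the threshold, 14 below it and 9 neither. The head factor OTX2 measured 784, 698 and 781 in H9, BG03 and ES01, the forebrain and pituitary factor HESX1 479, 580 and 465, and the membrane protein gene PROM1 766, 887 and 961. GBX2, a hindbrain factor, was above background in ES01 alone (11.0, 8.83 and 33.9). SOX1, an early neural plate marker, measured -1.97, -2.70 and -2.40 and was below the threshold (limma adjusted p = 0.000377). SOX2, of the same list, measured 3.87, 5.03 and 3.90 and was below it too (limma adjusted p = 0.00918). Neither call shows that a gene is absent, since no probe was checked.

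Of 16 measured proneural and neuronal bHLH factors, 4 were above background in all lines and 11 in none; by limma 3 lay above and 10 below the threshold. The 3 above were the broadly expressed E proteins, the pairing partners of proneural factors. TCF3 measured 806, 815 and 949 in H9, BG03 and ES01, TCF4 452, 446 and 580, and TCF12 467, 390 and 402. NEUROD2, NEUROD4, NEUROD6, OLIG1 and OLIG3 were above background in no line.

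Repressors and inhibitors of proneural factors were above background in all lines for 12 of 13, and limma placed the same number above the threshold. ID1 measured 908, 1155 and 694 in H9, BG03 and ES01, ID3 915, 814 and 805, and GMNN, geminin, 2831, 2576 and 3094. ID2 (616, 259 and 404) and HES6 (62.8, 33.0 and 31.2) were at least 2-fold higher in H9 than in another line. REST, a repressor of neuronal genes in non-neuronal cells, measured 13.7, 21.5 and 27.6, the lowest in H9 and 2.02-fold apart between H9 and ES01. Its H9 value was near the threshold of 11.2 units and under the 99th percentile (25.2), so that ratio depends on the threshold. HES6 stands in this list by family, although it is known to favour neuron formation. RCOR1, a corepressor that acts with REST, was above background in no line.

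**Figure D4:**
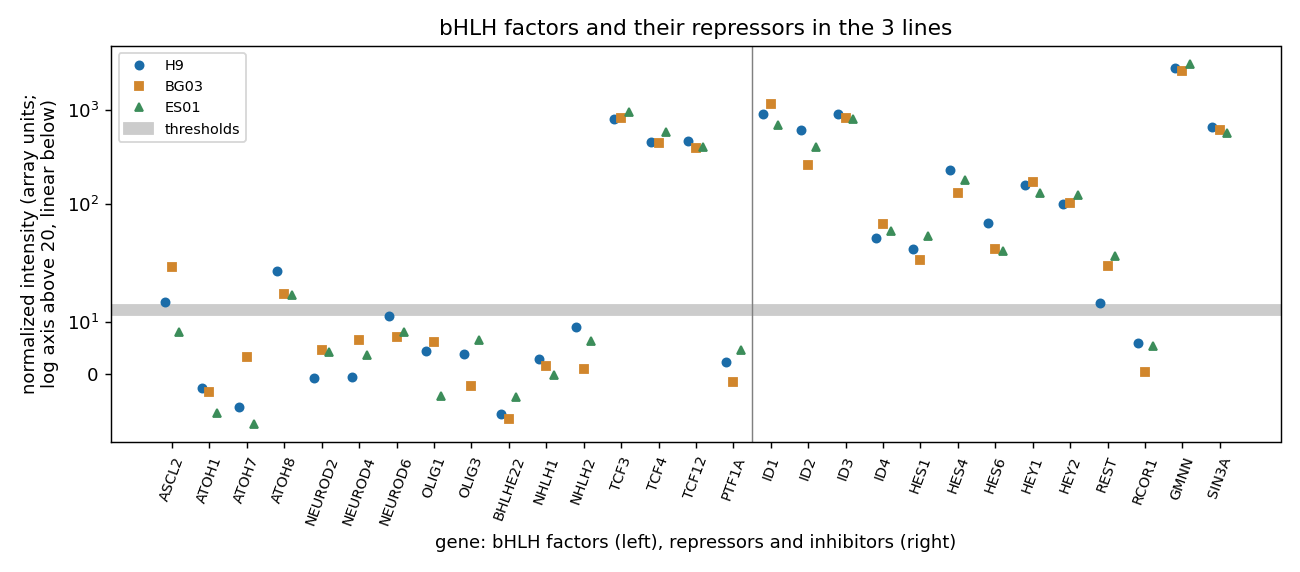
Normalized intensity (array units; log axis above 20 units, linear below) of 16 bHLH factors and 13 repressors and inhibitors in H9 (circles), BG03 (squares) and ES01 (triangles); the grey band spans the thresholds, 11.2 to 13.3 units. Of the bHLH factors 4 lie above it in all lines, including TCF3, TCF4 and TCF12, and of the repressors and inhibitors 12 of 13.

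Cofactors and targets of neuronal determination were above background in all lines for 6 of 20, and 14 were in none. With thresholds at the 99th percentile 3 of the 20 were above in all lines. INSM1, a zinc finger factor of newborn neurons and endocrine cells, measured 13.5, 38.8 and 85.8 in H9, BG03 and ES01. It was 6.37-fold apart between H9 and ES01, lowest in H9. The H9 value was near its threshold of 11.2 units and under the 99th percentile (25.2), so the ratio depends on the threshold. DLL1, a NOTCH ligand, was highest in H9 (73.9, 34.4 and 29.7), and RUNX1T1 was lowest in H9 (55.1, 75.9 and 116). EOMES, of cortical intermediate progenitors and also of the primitive streak, measured 522, 393 and 467.

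Neuronal cytoskeleton genes differed from MAP2 in being mostly detected: 23 of 28 were above background in all lines, and limma placed 23 above the threshold. The collapsin response gene DPYSL3 measured 9284, 7727 and 7060 in H9, BG03 and ES01, and the tubulins TUBB2B 6107, 5841 and 7195 and TUBA1A 5194, 4583 and 5329. Tubulin genes are near-identical copies, and their probes may not separate them. TUBB2A was 2.08-fold apart (4360, 3301 and 6853), and MAP1A, a relative of MAP2 in function, 2.35-fold (12.9, 30.2 and 29.1). The MAP1A value in H9 was near its threshold of 11.2 units and under the 99th percentile (25.2), so that ratio depends on the threshold. MAPT, the microtubule protein tau, was above background in no line (-1.67, 1.20 and 2.30).

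Neuronal RNA-binding, adhesion and synapse genes were above background in all lines for 6 of 21, in some lines for 6 and in none for 9. SYT1, a vesicle calcium sensor, measured 112, 109 and 91.2 in H9, BG03 and ES01, VAMP2 92.5, 104 and 105, and GAD1, a GABA-synthesising enzyme, 134, 197 and 296. GAD1 was 2.21-fold apart between H9 and ES01. These counts stand beside 59.8% of all genes above background in all lines, and no test between lists was made.

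**Figure D5:**
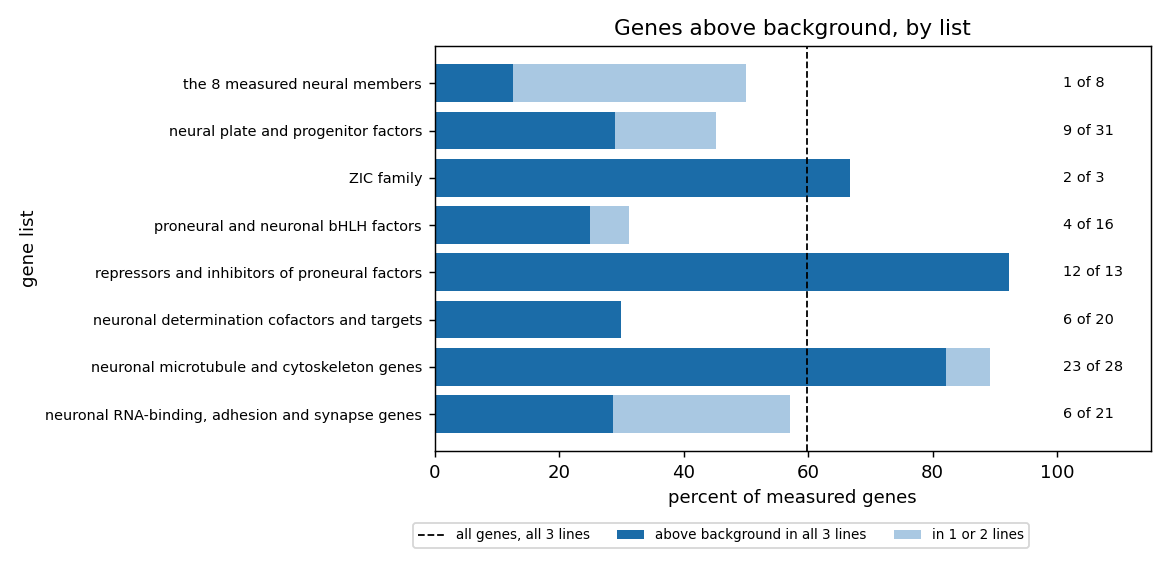
Percent of measured genes past the threshold in all 3 lines (dark) or in 1 or 2 lines (light) for the 8 genes and 7 lists of related genes, with the share over the whole array (59.8%) as a dashed line. Repressors and inhibitors (12 of 13) and cytoskeleton genes (23 of 28) lie right of it, and the 8 genes (1 of 8) left of it.

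Markers of the labelled cells and of others were read in the same way, with negative values left out of the summed intensities. All 9 measured ES cell markers, among them POU5F1, NANOG and LIN28A, were above background in all lines, with summed intensities of 24195 to 31728. SOX2, also known as a factor of ES cells, was not in this marker list and was above background in no line (3.87, 5.03 and 3.90 in H9, BG03 and ES01). Neural progenitor markers reached 2 of 6 (summed 249 to 332), where NES and FABP7 were detected and SOX1, LHX2 and SIX3 were in no line. Neuron markers reached 3 of 7 (summed 2026 to 2529), where TUBB3, SYT1 and GAP43 were detected and ELAVL4 and SNAP25 were in no line. Glial markers reached 1 of 5 (AQP4; summed 28.1 to 38.3), with GFAP, S100B, MBP and MOG at background in every line. Fibroblast markers reached 4 of 8 (1154 to 1540), highest in ES01, with COL3A1 and POSTN in no line. Most of these sums came from THY1 (752, 851 and 824 in H9, BG03 and ES01) and COL1A2 (310, 229 and 582). The part of feeder RNA in any level given was not tested. OLIG2 was lowest in ES01, where the ES cell, fibroblast, neural progenitor and neuron sums were all highest. The glial sum (30.4, 38.3 and 28.1 in H9, BG03 and ES01) and the endocrine pancreas sum (537, 645 and 528) were lowest in ES01. Glial markers other than AQP4 (23.7, 27.9 and 16.8) were at background, several with negative values, so nothing is read from the order of the glial sum. Most of the endocrine pancreas sum came from CHGA (514, 598 and 432). The part of any of these in the OLIG2 level was not tested.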

How the data were processed

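The labels give total RNA extracted with TRIzol, labelled with Cy3 for Illumina whole-genome arrays, from 3 human ES cell lines in 1 group. The deposited value table holds a background-subtracted intensity per probe, on a linear scale, with 26.3% to 33.8% of values below 0. The scanner software is not given in the sources used here, nor is any scaling applied across arrays. The deposited bead files hold 1 green intensity per bead, per the file headers. Their codes carry no gene names, so they served for technical error only: beads farther than 3 median absolute deviations from the median of their own code were dropped, and the median standard error over 500 bead types at a probe's rank was used.

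Probes were named through the platform annotation: 18468 carry a single symbol and 28825 carry none here; 0 carry more. By gene ID, 18451 were found in the RefSeq table (GRCh38.p14), used for names only. All probes except 4 bacterial controls went through quantile normalization (limma 3.58.1, R 4.3.3). For genes with several probes the one with the highest mean was used, which favours detection. The background threshold of an array was set at the 95th percentile of its 214 olfactory receptor probes.

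Genes above background were called per line and by limma's moderated test (intercept, trend) on log2(intensity + 16) minus log2(threshold + 16). The limma step was run on simulated data drawn from its own fitted spread around fixed thresholds. This checks the code and not the calls made on these lines. Differences between lines used a 2-fold size. The genes named in lists were the 3 with the highest mean and up to 4 with the largest difference of at least 2-fold between lines. Other NEUROD and OLIG genes, SOX1, SOX2, MAPT, RCOR1 and marker genes were named after their values were seen. The members and lists were chosen with earlier results of these data known. Python 3.11.15, numpy 2.4.6, pandas 2.3.3 and matplotlib 3.10.9 were used for beads, promoters and figures.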

Additional observations from a re-analysis of the deposited data

How the results depend on the processing

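No paired analysis was possible because the samples form 1 group. Limits: values lie close to background, so the threshold decides most calls of single genes. Leaving out 1 line, the count of genes of the 8 above background in all remaining lines was 2 to 2, and limma called 1 to 2 of them. ZIC1 was added without BG03 (limma adjusted p = 0.0213) and OLIG2 without ES01 (limma adjusted p = 0.000375). Each was added by leaving out the line where it lay under its threshold, so neither call is evidence of detection. With the mean of all probes of a gene, the count above background in all lines was 0 and limma called 0, since DCX turned to -0.25. With the 99th percentile PAX6 turned below the threshold (-0.52, limma adjusted p = 0.0183), and OLIG2 (-0.29) and ZIC1 (-0.31) turned below it without passing the test (adjusted p = 0.355 and 0.14). Leaving out 1 line, OLIG2 ranged from -0.23 (without BG03) to 1.14 (without ES01), and was -0.074 without H9. PAX6 ranged from -0.18 (without ES01) to 0.29 (without H9), and was -0.0069 without BG03. The limma adjusted p of the values below 0 lay between 0.402 and 0.98. With the second background set 6 of the 8 were above background in at least 1 line, against 4.

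The numbers of the 8 genes at least 2-fold apart (1, 2 and 2 for H9 over BG03, H9 over ES01 and BG03 over ES01) changed as follows. With arrays scaled to the same median, the counts for both pairs with ES01 were 1 and 1. With the 99th percentile they were 0 and 1. With the second background set the count for BG03 over ES01 was 1, and with the mean of all probes that for H9 over BG03 was 0. A floor of 50 units gave 0, 0 and 0, since nearly all values lie under it. A 1.5-fold size gave 2 for H9 over BG03, and a 3-fold size 0, 0 and 1. Over all genes (355, 561 and 411) the 99th percentile gave 198 and 262 for H9 over BG03 and BG03 over ES01, the floor of 50 units 126, 226 and 165, a 1.5-fold size 1301, 1791 and 1480, and a 3-fold size 88, 141 and 87.

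The median log2 difference of the genes for BG03 over ES01 (-0.12) turned to 0.17 with same-median scaling, 0.41 with the 99th percentile, 0.12 with the second background set and 0.039 with the floor of 50 units, and was -0.71 with the mean of all probes. For H9 over ES01 it turned to 0.025 with the 99th percentile. There PAX6 (H9 over ES01) and ZIC1 (BG03 over ES01) turned to 0.059 and 0.28, because lower values are set to the thresholds, and those of H9 (25.2) and BG03 (30.9) exceed the ES01 levels of PAX6 (24.2) and ZIC1 (25.4). Same-median scaling rests on probes under background. The 99th percentile also took the count above background in all lines to 3 for cofactors and targets of neuronal determination and to 1 for the ZIC family.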
